A study of Mus musculus with 9 samples.

Results

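The crypt stem cell marker genes are 10 genes: Lgr5, Ascl2, Smoc2, Axin2, Ephb2, Ephb3, Sox9, Lrig1, Cdca7 and Rnf43. They were taken by symbol from a table of 35315 genes. This list was chosen with earlier results of these data known. The 10 genes were followed in the colon of C57BL/6J wild-type mice aged 8 weeks, in 3 groups of 3 RNA-seq libraries. The Control group drank normal water. The DSS group drank 2.5% dextran sulfate sodium, a polymer that damages the lining of the colon, for 7 days and was injected intravenously with solvent on days 2, 4 and 6. The GsMTx4 group drank the same DSS and was injected on the same days with 10 mg/kg of GsMTx4, a spider-venom peptide that blocks cation channels gated by mechanical force. No injection is listed for the Control group, so effects of DSS and of the solvent injections cannot be told apart, and no group received GsMTx4 without DSS. The labels leave unsaid whether each library is a different mouse, and if not, the p-values below measure technical spread.

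The colonic epithelium is renewed from stem cells at the base of the crypts. Wnt ligands and R-spondins from the surrounding stroma keep these cells dividing. Cells that move up the crypt lose this signal, stop dividing and mature into absorptive or secretory cells. The marker genes are of several kinds: parts of the Wnt receptor system and its feedback (Lgr5, Rnf43, Axin2), nuclear regulators (Ascl2, Sox9, Cdca7), receptors that sort cells along the crypt axis (Ephb2, Ephb3), and a matrix protein and a brake on growth factor receptors (Smoc2, Lrig1). Most of them are known Wnt targets. None is a marker of the stem cell alone: Sox9, Ephb2 and Cdca7, for example, are also found in the dividing cells above it.

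Ascl2 and Axin2 are textbook Wnt targets, and both were lower in DSS in all 22 alternatives in which they were tested. Their upstream sequences are shown for that reason. The 250 bases before the RefSeq start of each gene (GRCm38.p6) are given 5′ to 3′ on the strand of the gene, with each match to CCAAT or GGGCGG, on either strand, in capitals. The Axin2 window is chr11:108920099-108920348 on the plus strand and the Ascl2 window is chr7:142969265-142969514 on the minus strand.
Axin2: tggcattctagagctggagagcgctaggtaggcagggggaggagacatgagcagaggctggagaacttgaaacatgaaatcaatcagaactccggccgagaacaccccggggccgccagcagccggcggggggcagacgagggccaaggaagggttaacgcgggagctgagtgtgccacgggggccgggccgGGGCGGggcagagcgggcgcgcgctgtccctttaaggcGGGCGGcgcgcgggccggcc
Ascl2: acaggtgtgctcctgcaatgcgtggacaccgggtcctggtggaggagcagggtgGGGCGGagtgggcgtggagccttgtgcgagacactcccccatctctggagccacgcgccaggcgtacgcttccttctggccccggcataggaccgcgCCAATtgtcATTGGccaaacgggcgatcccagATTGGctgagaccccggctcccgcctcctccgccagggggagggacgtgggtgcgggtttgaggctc
Axin2 held 2 GGGCGG boxes and no CCAAT box, while Ascl2 held 1 GGGCGG box and 3 CCAAT boxes. GC content was 69.2% in Axin2 and 67.6% in Ascl2, beside a median of 52.4% over all 32851 promoter windows of this length. RefSeq entries matched 7 of the 10 members, with 8 windows, and Lgr5, Smoc2 and Sox9 were not matched. GGGCGG was in 5 of the 8 windows and in 32.7% of all windows, and CCAAT was in 3 of the 8 and in 33.8%. The core letters of the site bound by the Wnt effectors of the TCF family, CTTTGA on either strand, were in 0 of the 8 windows and in 13.8% of all windows. The letters searched did not overlap each other in the member windows, and a window of this length does not cover more distant sites.

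In Control colon the members ranged from just under the lowest level that was tested to moderate levels. Levels are in FPKM, fragments scaled to transcript length and library size, so that genes can be compared per length. Lrig1 was the highest at 22.7 ± 0.887 FPKM (mean ± SD over 3 libraries), followed by Cdca7 at 15.4 ± 1.93 and Sox9 at 8.26 ± 0.917. The next 6 members lay close together between Axin2 at 5.57 ± 0.555 and Ephb2 at 4.15 ± 0.352, and within this range the libraries of each gene overlapped those of the next. Lgr5, the gene that defines the crypt base stem cell, was the lowest at 0.941 ± 0.0887 FPKM. It reached 1 FPKM in 1 of the 9 libraries and was therefore outside the fit, which took genes with at least 1 FPKM in at least 3 libraries. The other 9 members were in the fit.

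DSS colon had lower levels of most members. Of the 9 members tested, 7 were lower in DSS than in Control and 0 were higher, in a fit where 10.7% of all 14360 tested genes were lower and 6.41% were higher (limma, Benjamini-Hochberg adjusted p under 0.05). The members were chosen with earlier results of these data known, so their share beside that of all genes is no independent support. At an unadjusted p under 0.05, 8 members were lower, beside 23.2% of all tested genes (11.7% were higher). Those that fell at the adjusted threshold were Ascl2, Axin2, Smoc2, Cdca7, Ephb3, Lrig1 and Sox9. Ascl2 met the filter only with its Control libraries counted, where it was high, so its place in this count lends no support. All 3 DSS libraries lay below all 3 Control libraries in 8 of the 9 tested members and in 9 of all 10, which was so for 33.6% of tested genes. The median member had a log2 fold change of -1.42, beside -0.17 over all tested genes. Fold changes are on the scale of log2(FPKM + 1), ± standard error, which makes them smaller than the change in FPKM for genes near or under 1 FPKM. The members' count stayed at 7 under rescaling to TPM, median-of-ratios scaling, quantile normalization and a shift to epithelial genes, and was 4 without Control 2. In RNA from whole tissue, fewer crypt base cells and less RNA per cell cannot be told apart.

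Among the Wnt receptor and feedback genes, Lgr5 and Axin2 lay far below Control while Rnf43 varied between the DSS libraries. Lgr5 (ENSMUSG00000020140, chr10:115450311-115587780, minus strand) encodes a receptor for R-spondins. It measured 0.975, 0.84 and 1.01 FPKM in Control 1, 2 and 3 and 0.00469, 0.0227 and 0.017 FPKM in DSS 1, 2 and 3. The DSS libraries were close to 0 and the groups did not overlap. The DSS mean was 1.57% of the Control mean. The difference in mean log2(FPKM + 1) was -0.93, with an exact two-sided permutation p = 0.1 and a Benjamini-Hochberg adjusted p = 0.1 over the 3 comparisons of this gene, and 0.1 is the smallest p that 3 libraries against 3 can give. In fits that took it in, Lgr5 had a limma adjusted p = 0.0109 with no filter on low values and 0.00454 with a filter of 0.1 FPKM in 3 libraries.

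Axin2 (ENSMUSG00000000142, chr11:108920349-108950783, plus strand) encodes a scaffold of the complex that degrades β-catenin and is a standard readout of Wnt signalling. Its levels were 5.87, 4.93 and 5.91 FPKM in Control and 0.843, 0.413 and 0.814 FPKM in DSS. Every DSS library was under 1 FPKM and every Control library was several-fold above that. Axin2 fell by 1.97 ± 0.27 on the log2 scale (limma adjusted p = 0.00272), to 12.4% of the Control mean. Rnf43 (ENSMUSG00000034177, chr11:87662722-87735539, plus strand) encodes a ubiquitin ligase that removes Wnt receptors from the cell surface. It measured 4.68, 4.15 and 4.74 FPKM in Control and 4.2, 1.56 and 1.22 FPKM in DSS. DSS 1 lay within the Control range and DSS 2 and 3 lay well under it. The log2 fold change of Rnf43 was -0.84 ± 0.28 and did not pass (limma adjusted p = 0.0696). Without DSS 1 it was -1.21 (limma adjusted p = 0.00396, the lowest over 22 alternatives, which ran up to 0.181).

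The nuclear regulators fell, Ascl2 the most. Ascl2 (ENSMUSG00000009248, chr7:142966829-142969264, minus strand) encodes a transcription factor that sustains the stem cell state together with Wnt signalling. It measured 3.22, 4.77 and 5.05 FPKM in Control and 0, 0.0571 and 0.0906 FPKM in DSS. The DSS libraries were near 0, and DSS 1 was listed at 0. Ascl2 fell by 2.33 ± 0.41 on the log2 scale (limma adjusted p = 0.00672), to 1.13% of the Control mean. It reached 1 FPKM in 3 Control, 0 DSS and 2 GsMTx4 libraries, so it was in the fit only because of its Control levels. Sox9 (ENSMUSG00000000567, chr11:112782224-112787760, plus strand) encodes a transcription factor of the lower crypt and of Paneth-like cells. Its levels were 8.92, 7.22 and 8.66 FPKM in Control and 4.35, 2.93 and 4.06 FPKM in DSS. The groups were apart, but every DSS library kept a clear level. Sox9 fell by 0.96 ± 0.17 on the log2 scale (limma adjusted p = 0.00662), to 45.8% of the Control mean. Cdca7 (ENSMUSG00000055612, chr2:72476159-72486893, plus strand) encodes a chromatin protein that works with the helicase Hells. It measured 13.2, 16.1 and 16.9 FPKM in Control and 4.49, 2.44 and 5.4 FPKM in DSS, with DSS 2 lowest and no overlap. Cdca7 fell by 1.72 ± 0.39 on the log2 scale (limma adjusted p = 0.0183), to 26.7% of the Control mean. Its adjusted p was 0.05 or above without Control 2, without Control 3, without DSS 2 and with no filter (0.00414 to 0.0644 over 23 alternatives).

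Of the 2 Eph receptors, which read ephrin-B ligands and keep proliferating cells in the lower crypt, Ephb3 fell and Ephb2 did not pass. Ephb3 (ENSMUSG00000005958, chr16:21204755-21223305, plus strand) measured 5.54, 4.73 and 6.41 FPKM in Control and 1.13, 0.838 and 2.69 FPKM in DSS. DSS 3 was the highest of its group and still under every Control library. Ephb3 fell by 1.42 ± 0.28 on the log2 scale (limma adjusted p = 0.0112), to 27.9% of the Control mean. Ephb2 (ENSMUSG00000028664, chr4:136647539-136835988, minus strand) measured 4.43, 4.26 and 3.76 FPKM in Control and 3.02, 2.48 and 3.41 FPKM in DSS. The groups did not overlap, yet the gap was narrow and the DSS mean was 71.6% of the Control mean. The log2 fold change of Ephb2 was -0.38 ± 0.19 and did not pass (limma adjusted p = 0.184). The ratio of Ephb3 to Ephb2, a measure chosen after these values were seen, was 1.25, 1.11 and 1.71 in Control and 0.374, 0.338 and 0.789 in DSS. The ratio was lower in every DSS library than in any Control library, with a difference of -1.52 on the log2 scale (exact two-sided permutation p = 0.1, the smallest possible, and 0.3 adjusted over 3 comparisons).

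Smoc2 and Lrig1 also fell, with DSS 3 the highest DSS library for both. Smoc2 (ENSMUSG00000023886, chr17:14279506-14404790, plus strand) encodes a secreted matrix protein of the crypt base. It measured 3.83, 4.39 and 4.49 FPKM in Control and 0.1, 0.178 and 1.08 FPKM in DSS. DSS 3 stood above the other 2 DSS libraries and far below Control. Smoc2 fell by 1.91 ± 0.39 on the log2 scale (limma adjusted p = 0.0131), to 10.7% of the Control mean, and its adjusted p was 0.0504 without Control 2 (0.00363 to 0.0504 over 22 alternatives). Lrig1 (ENSMUSG00000030029, chr6:94604529-94700158, minus strand) encodes a membrane protein that restrains receptors of the EGF family. It measured 21.8, 23.6 and 22.7 FPKM in Control and 6.1, 6.01 and 16.5 FPKM in DSS. DSS 1 and 2 lay close together and DSS 3 lay between them and Control. Lrig1 fell by 1.31 ± 0.34 on the log2 scale (limma adjusted p = 0.0313), to 41.9% of the Control mean. Its adjusted p was 0.05 or above without any 1 of the Control libraries, without DSS 1, without DSS 2 and with no filter (0.00461 to 0.0953 over 23 alternatives).

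**Figure D1:**
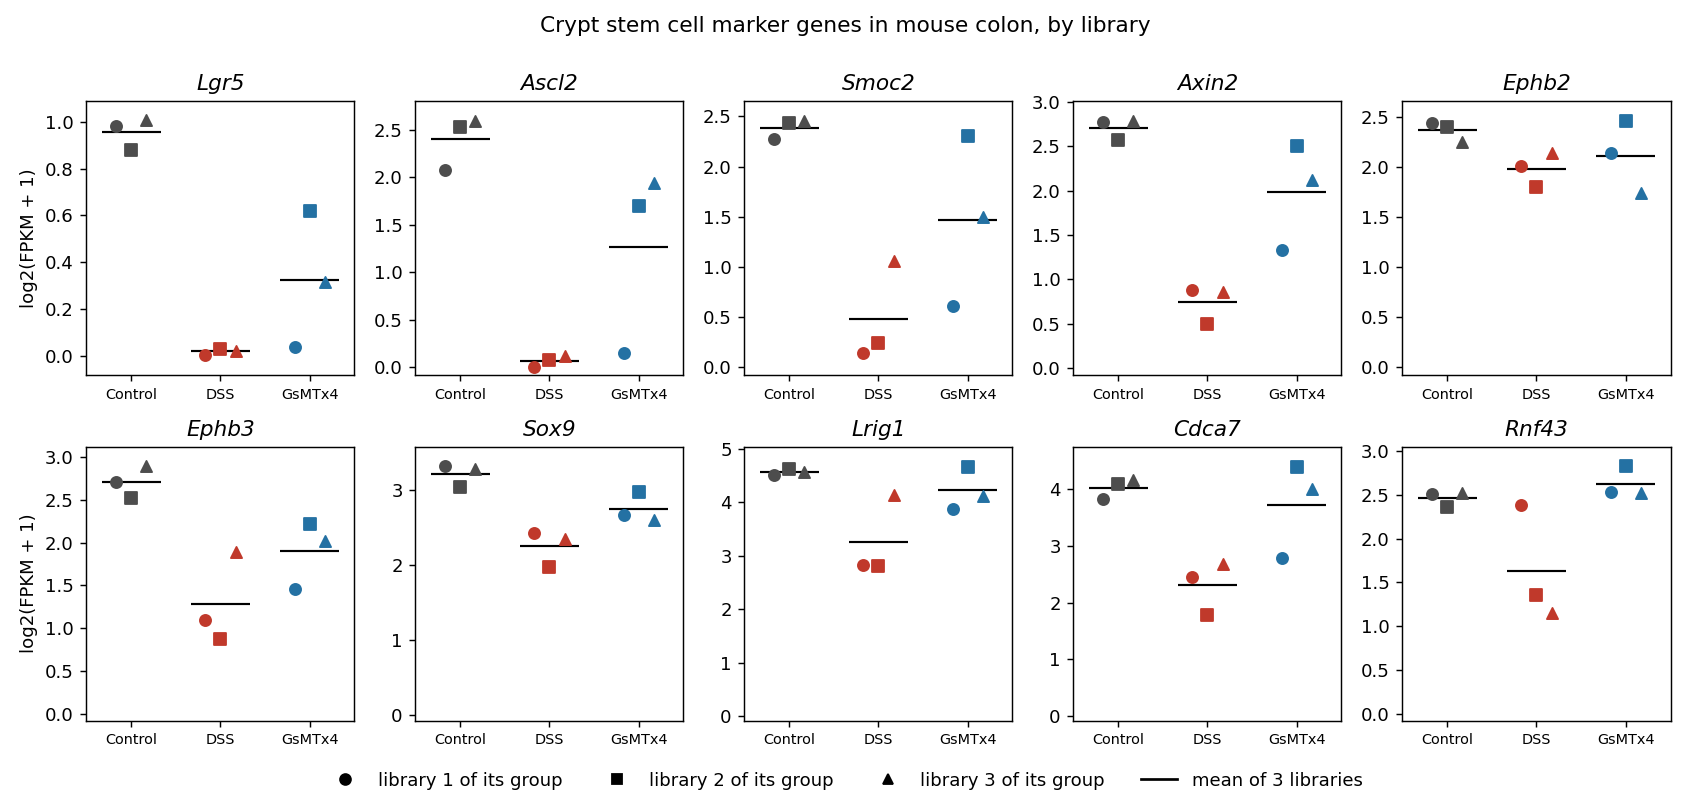
Level of each marker gene in each library, as log2(FPKM + 1) on the vertical axis, for Control, DSS and GsMTx4; symbols mark libraries 1, 2 and 3 of a group and the line is the mean of 3 libraries. The DSS libraries lie under all Control libraries in 9 of the 10 panels, Rnf43 being the other, and the GsMTx4 libraries are spread between the other groups in most panels.

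Reads of a gene and of a gene that overlaps it cannot be told apart where strand was not used, and the sources here do not state whether it was. Smoc2, Axin2, Lrig1 and Rnf43 overlap other listed genes, and Lgr5 overlaps a gene outside the table. The overlapping antisense genes were low: at most 0.521 FPKM for 4930474M22Rik in Smoc2 and 0.236 FPKM for Gm11670 in Axin2. In Lrig1, Slc25a26 reached 1.85 FPKM and the short Mir7041 reached 6.07 FPKM. In Rnf43, 1110028F11Rik reached 0.229 FPKM and Gm25968 reached 0.134 FPKM.

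Colon of DSS mice given GsMTx4 had higher levels of 3 of the 9 tested members than colon of DSS mice given solvent, and 0 were lower. In the same fit 6.66% of all tested genes were higher and 5.62% were lower. The 3 that rose were Axin2, Cdca7 and Rnf43. At an unadjusted p under 0.05, 7 members were higher and 0 lower, beside 17.2% and 13% of all tested genes. All 3 GsMTx4 libraries lay above all 3 DSS libraries in 5 of the 9 tested members and in 6 of all 10, as they did for 17.5% of tested genes. They lay below all DSS libraries in 0 members, as they did for 12.8% of tested genes. The median member had a log2 fold change of 0.99, beside 0.07 over all tested genes. Leaving out DSS 2, GsMTx4 2 or GsMTx4 3 took the count of members to 0. It was 1 without any 1 of the Control libraries, and 4 without GsMTx4 1. It was 0 with no filter and 6 after a shift to epithelial genes. Both this comparison and the one above use the same DSS libraries, so a low value there pulls them in opposite directions.

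In the Wnt receptor and feedback group, Lgr5 measured 0.0275, 0.534 and 0.244 FPKM in GsMTx4 1, 2 and 3, all above the DSS libraries. GsMTx4 1 was barely above them, and GsMTx4 2 and 3 stood clearly apart. The group mean was 28.5% of the Control mean, and the difference from DSS in mean log2(FPKM + 1) was 0.30 (exact two-sided permutation p = 0.1, the smallest possible, and 0.1 adjusted). Axin2 measured 1.51, 4.66 and 3.35 FPKM, all above the DSS libraries and with GsMTx4 1 lowest. It rose by 1.24 ± 0.27 on the log2 scale (limma adjusted p = 0.0208), to 56.9% of the Control mean. The adjusted p of Axin2 was 0.05 or above when any 1 of DSS 2, GsMTx4 2 and GsMTx4 3 was left out, with no filter and with the compared groups alone (0.00432 to 0.0689 over 22 alternatives). Rnf43 measured 4.78, 6.09 and 4.73 FPKM, all above the DSS libraries and within or above the Control range. It rose by 1.0 ± 0.28 on the log2 scale (limma adjusted p = 0.0498), to 115% of the Control mean. Rnf43 passed in 4 of 22 alternatives (0.00378 to 0.152), and of the 9 that left out 1 library it passed only without DSS 1.

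Of the nuclear regulators, Cdca7 rose. Cdca7 measured 5.86, 20.1 and 15.1 FPKM in the GsMTx4 libraries. GsMTx4 1 was just above the highest DSS library, GsMTx4 2 was above every Control library, and GsMTx4 3 was within the Control range. The rise was 1.42 ± 0.39 on the log2 scale (limma adjusted p = 0.0446), to 88.9% of the Control mean. Cdca7 passed in 9 of 23 alternatives (0.00728 to 0.14), and of the 9 that left out 1 library it passed only without GsMTx4 1. Ascl2 measured 0.107, 2.25 and 2.85 FPKM. GsMTx4 2 and 3 stood far above DSS and GsMTx4 1 was next to it. The log2 fold change of Ascl2 was 1.20 ± 0.41 and did not pass (limma adjusted p = 0.085). Without GsMTx4 1 it was 1.76 (limma adjusted p = 0.00304, the lowest over 22 alternatives, which ran up to 0.24). Sox9 measured 5.36, 6.86 and 5.02 FPKM, all above the DSS libraries. Its log2 fold change was 0.50 ± 0.17 (limma adjusted p = 0.0812).

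The remaining 4 members did not pass. Smoc2 measured 0.526, 3.93 and 1.83 FPKM in the GsMTx4 libraries, with GsMTx4 1 within the DSS range. Its log2 fold change against DSS was 0.99 ± 0.39 (limma adjusted p = 0.128) and passed without GsMTx4 1 (adjusted p = 0.0293, with a range of 0.0293 to 0.349 over 22 alternatives). Lrig1 measured 13.7, 24.4 and 16.4 FPKM, against which DSS 3 at 16.5 FPKM overlapped. The log2 fold change of Lrig1 was 0.97 ± 0.34 (limma adjusted p = 0.0951) and passed without DSS 3 (adjusted p = 0.0138, with a range of 0.0138 to 0.272 over 23 alternatives). The Eph receptors overlapped DSS in both cases. Ephb3 measured 1.74, 3.65 and 3.06 FPKM, with a log2 fold change of 0.61 ± 0.28 (limma adjusted p = 0.181). Ephb2 measured 3.4, 4.5 and 2.34 FPKM, with a log2 fold change of 0.13 ± 0.19 (limma adjusted p = 0.683), which was -0.04 without GsMTx4 2. GsMTx4 3 held the lowest Ephb2 value of all 9 libraries. The ratio of Ephb3 to Ephb2 was 0.512, 0.811 and 1.31 in the GsMTx4 libraries, and its exact permutation p was 0.2 against DSS and 0.3 against Control (both 0.3 adjusted).

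**Figure D2:**
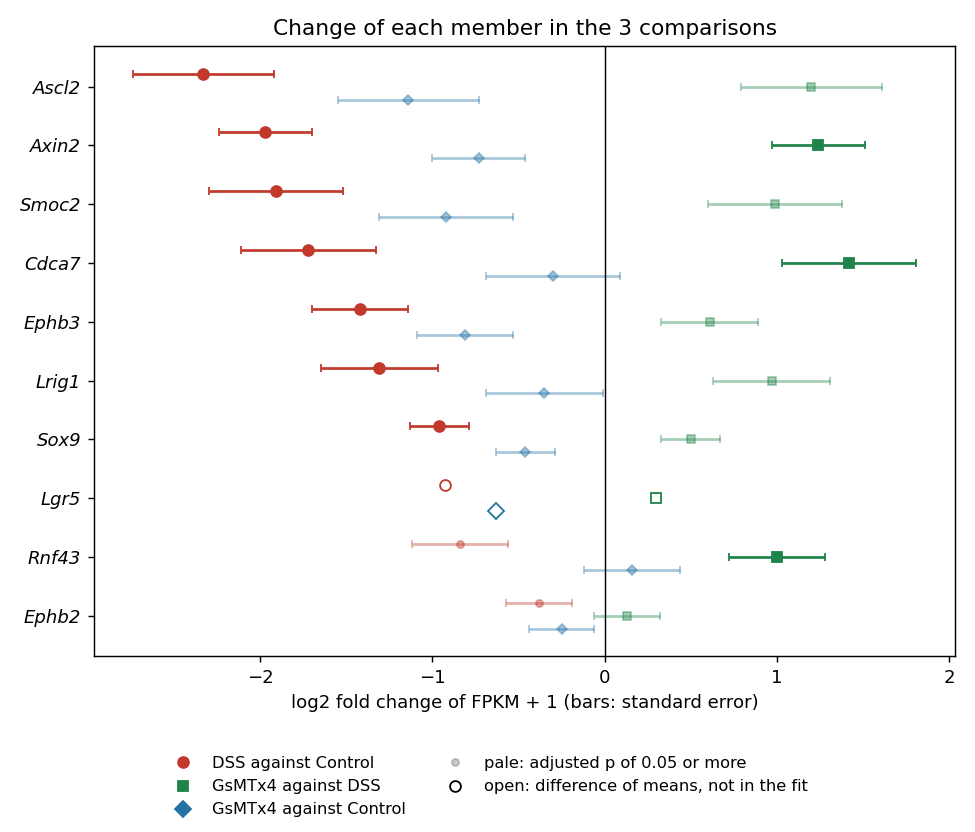
Log2 fold change of FPKM + 1 (horizontal axis) of each marker gene (vertical axis) in the 3 comparisons; bars are standard errors from limma, pale points have an adjusted p of 0.05 or more, and the open Lgr5 points are differences of group means. All 10 genes lie left of 0 in DSS against Control and right of 0 in GsMTx4 against DSS, where Ephb2 turned to -0.04 without GsMTx4 2.

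Against Control, 0 of the 9 members passed in GsMTx4 colon in either direction (limma), and 5 were lower and 0 higher at an unadjusted p under 0.05, beside 7.35% and 2.79% of all tested genes. Few genes of any kind passed at the adjusted threshold: 0.0487% of tested genes were lower and 0.188% were higher. Among those higher were 5 of the 6 hepatocyte markers described below. All 3 GsMTx4 libraries lay below all 3 Control libraries in 4 of the 9 tested members and in 5 of all 10, as in 14.6% of tested genes. These 5 were Lgr5, Ascl2, Axin2, Ephb3 and Sox9. The median member had a log2 fold change of -0.46, beside -0.08 over all tested genes. The lowest log2 fold change was that of Ascl2 at -1.14 ± 0.41 (limma adjusted p = 0.393), at 39.9% of the Control mean. Smoc2 had -0.92 ± 0.39 and 49.4% of the Control mean (adjusted p = 0.478), and Ephb3 had -0.81 ± 0.28 and 50.7% (adjusted p = 0.382). Lgr5 differed by -0.63 in mean log2(FPKM + 1) (exact two-sided permutation p = 0.1, the smallest possible, and 0.1 adjusted). At 28.5% of the Control mean it was the lowest of the 10 members in percent. Nearer to Control were Lrig1 at 80%, Ephb2 at 82.3% and Sox9 at 69.5% of the Control mean. A p that misses the threshold does not show that the groups were alike, and the GsMTx4 libraries were far apart.

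**Figure D3:**
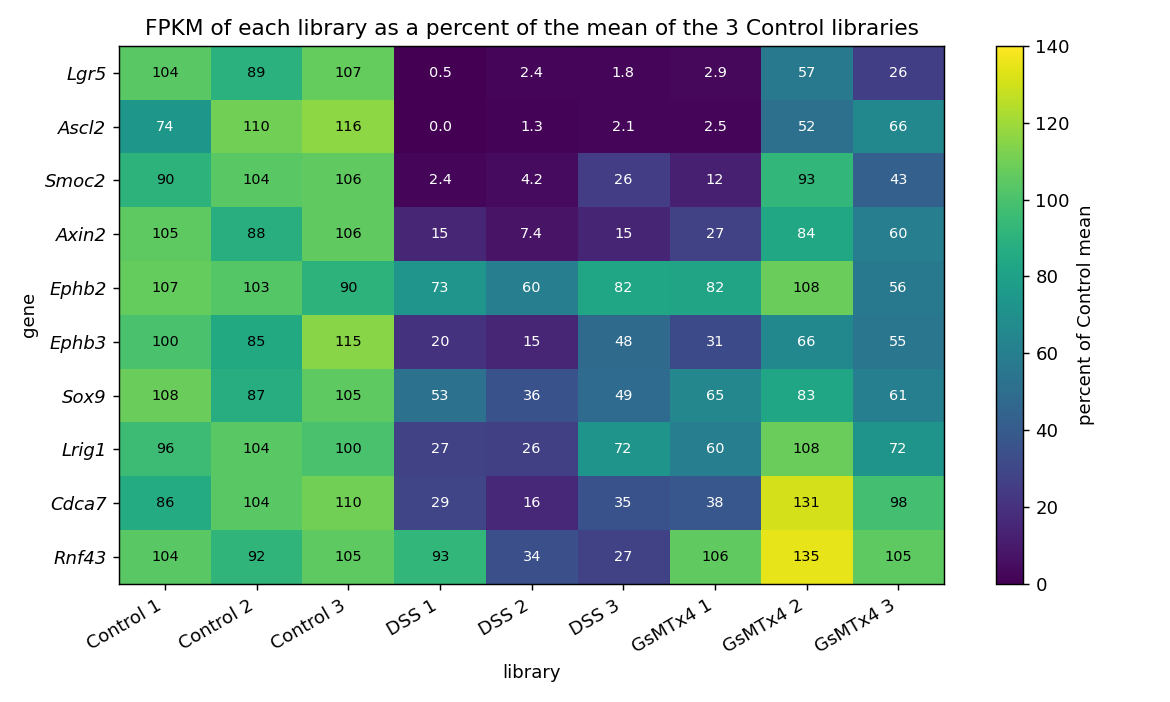
FPKM of each library (columns) as a percent of the mean of the 3 Control libraries, for each marker gene (rows); colour and cell text give the same percent. Lgr5 and Ascl2 are darkest in DSS 1, 2 and 3 and in GsMTx4 1, and Ephb2 has the mildest colour change in the DSS columns (mean 71.6%).

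The 3 GsMTx4 libraries differed from one another in the same order for most members. GsMTx4 1 was the lowest of its group in 7 of the 10 members, and GsMTx4 2 was the highest in 9. Among all tested genes that were lower in DSS, GsMTx4 1 was the lowest of its group in 58.7% and GsMTx4 2 was the highest in 54.9%. GsMTx4 1 lay within the DSS range in 4 members and above it in the other 6. GsMTx4 2 reached the lowest Control library in 5 members and GsMTx4 3 did so in 2. Summed over the 10 members, FPKM was 72.5 to 79.7 in Control, 16.9 to 35.2 in DSS, and 37, 77 and 54.9 in GsMTx4 1, 2 and 3. On the mean log2(FPKM + 1) of the members relative to Control, GsMTx4 1 was at -1.02, next to DSS 3 at -1.14, and GsMTx4 2 was at -0.11. Within DSS the order was less fixed, with DSS 2 lowest in 6 members and DSS 3 highest in 6.

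Other gene lists were read by library beside this order. Relative to Control, the mean log2(FPKM + 1) of 18 proliferation genes was -0.54, -1.16 and -0.87 in DSS 1, 2 and 3 and -0.77, 0.16 and -0.33 in GsMTx4 1, 2 and 3. As in most marker genes, GsMTx4 1 was lowest and GsMTx4 2 highest of its group. The neutrophil, fibroblast and hepatocyte lists had another order. Of 6 neutrophil markers 3 were tested. Summed over all 6, FPKM was 1.65 to 2.21 in Control and 55.9, 83.4 and 278 in DSS. It was 42.5, 8.42 and 4.23 in GsMTx4 1, 2 and 3. GsMTx4 1 thus had more neutrophil marker RNA than the other 2 libraries of its group. S100a8 and S100a9 passed in DSS, and Mpo, too low to be tested, was listed at 0 in 8 of the 9 libraries. S100a8 met the filter only with its DSS libraries counted, where it was high, so its call lends no support. For 7 fibroblast markers the mean log2 level was 0.02, 0.34 and 1.02 in DSS and -0.02, -0.27 and -0.61 in GsMTx4, with DSS 3 highest. Of these, 0 passed in DSS (2 higher at an unadjusted p under 0.05) and 3 were lower in GsMTx4 than in DSS, a count that ran from 0 to 3 with 1 library left out. Markers of hepatocytes, cells that colon should lack, summed to 20.7 to 26.8 FPKM in Control, 3 to 6.96 in DSS and 39 to 56.7 in GsMTx4. In limma 6 of 6 were higher in GsMTx4 than in DSS. Among these, Apoa1, Fgb and Ahsg reached 1 FPKM only in GsMTx4 libraries and entered the fit only through that group. Alb, which otherwise reached it only in Control 1 at 1.22 FPKM, also met the filter only with that group. Their calls therefore lend no support. Most of the Control sum was Ttr, at 24.5, 19.1 and 20.9 FPKM, and Ttr measured 3.04, 5.19 and 2.08 FPKM in DSS. The lower sum in DSS was thus mostly that of Ttr. Fgb was listed at 0 in all 3 Control libraries and Ahsg in all 3 DSS libraries. Fgb and Ahsg were also named after their values were seen. The mean over 12 epithelial reference genes was between -0.20 and 0.15 in every library, while single genes of the list differed more. Among them Cdx2, named after its values were seen, had a log2 fold change of -0.78 ± 0.60 in DSS and did not pass. In GsMTx4 against Control its log2 fold change was -1.64 ± 0.60 (limma adjusted p = 0.407). Cdx2 measured 5.21, 32.7 and 5.89 FPKM in GsMTx4 1, 2 and 3. The shift to epithelial genes used this list, Cdx2 included. In DSS 1 gene of the list passed (Elf3, 0.69 ± 0.20, limma adjusted p = 0.0425). Elf3 was lost without Control 2, Control 3, GsMTx4 2 or any 1 DSS library. In the other lists, DSS had 3 of 6 endothelial markers higher (0 to 3 with 1 library left out) and 2 of 8 leukocyte markers higher (0 to 5). Among the endothelial calls, Emcn, named after its values were seen, reached 1 FPKM only in DSS libraries. It entered the fit only through that group, so its call lends no support. In DSS 0 of 6 smooth muscle markers changed, and 1 of the 2 tested markers of enteric glia and Cajal cells was lower (0 to 1). Of 9 tested genes listed as mature colonocyte genes, 1 was higher in DSS (Saa1) and 1 lower (Aqp8, and 2 without DSS 3). In GsMTx4 against DSS 2 of them were higher and 2 lower. With 1 library left out, the higher count there was 1 and the lower count ran from 0 to 3. The part of these cell type markers in the marker genes' differences was not tested.

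**Figure D4:**
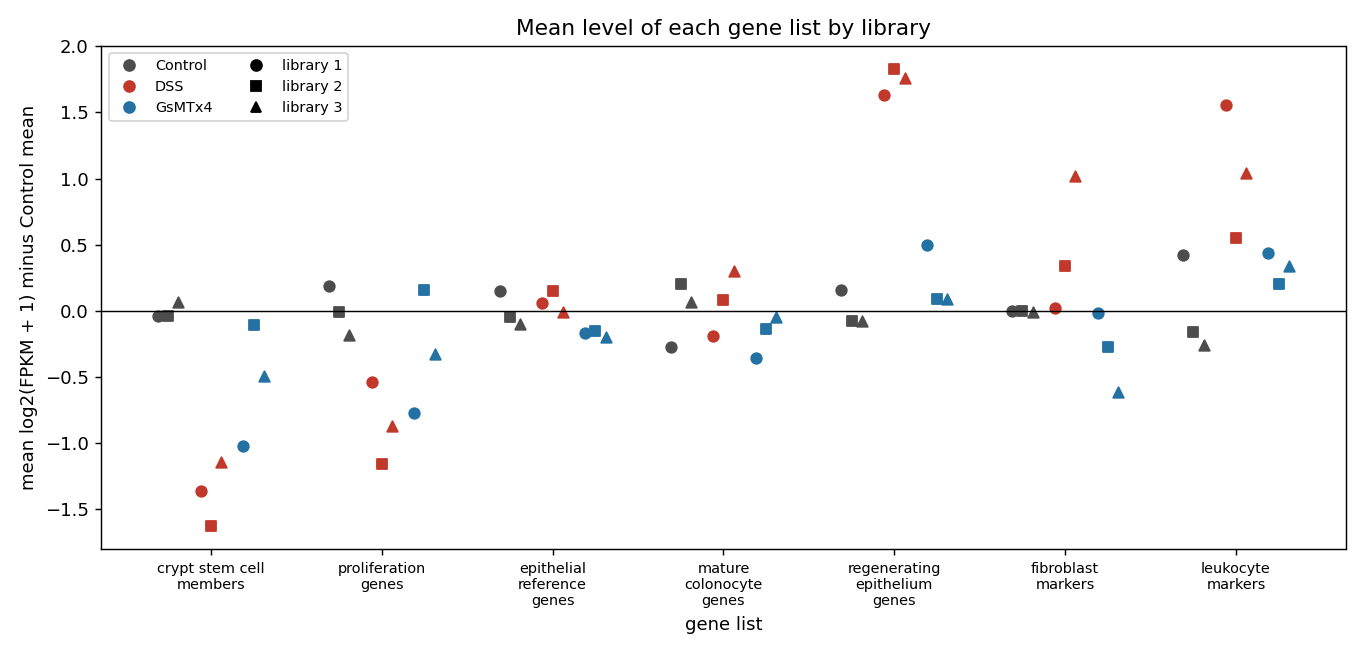
Mean log2(FPKM + 1) of each gene list minus its Control mean (vertical axis) in each library, with colour for the group and symbol for the library; lists are named on the horizontal axis. The marker genes are lowest in DSS (-1.63 to -1.14), the mean of the epithelial reference genes stays between -0.20 and 0.15, and the regenerating epithelium genes are highest in DSS.

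Genes named in other work on crypt base cells split in direction. Of 14 such genes, 8 were tested, and in DSS 3 were lower and 1 was higher (2 without GsMTx4 3). Slc12a2, a chloride cotransporter of the lower crypt, measured 26.8, 26.4 and 25 FPKM in Control, 5.09, 7.12 and 5.35 in DSS and 11.4, 31.3 and 15.2 in GsMTx4. It fell by 1.99 ± 0.30 in DSS (limma adjusted p = 0.00406), and in GsMTx4 it was 1.46 ± 0.30 higher than in DSS (limma adjusted p = 0.0182, and 0.0547 without DSS 3, with a highest of 0.0603 over 23 alternatives). Prom1, a membrane glycoprotein also used as a stem cell marker, went the other way. Its levels were 4.58, 6.82 and 5.48 FPKM in Control, 17.5, 35.7 and 25.7 in DSS and 2.56, 6.04 and 3.15 in GsMTx4. It rose by 2.00 ± 0.30 in DSS (limma adjusted p = 0.00406) and had a log2 fold change of -2.48 in GsMTx4 against DSS (limma adjusted p = 0.00288). The other 2 that passed in DSS, named after their values were seen, were Hopx at -2.02 ± 0.40 and Rgmb at -0.97 ± 0.17 (limma adjusted p = 0.0112 and 0.00762). Olfm4, a marker of stem cells of the small intestine, was at most 0.058 FPKM.

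Other Wnt target and feedback genes, with the Wnt effectors Ctnnb1 and Tcf7l2, were listed apart from Axin2 and Ascl2. Of these 15 genes 9 were tested and 0 passed in DSS (limma), with 2 lower and 1 higher at an unadjusted p under 0.05. Without DSS 1, 1 was lower and 1 higher, without DSS 2, 1 was higher, and without GsMTx4 3, 1 was lower. Their median log2 fold change was 0.13, beside -1.42 for the marker genes, and the 2 lists were not tested against each other. Znrf3, the paralog of Rnf43, had a log2 fold change of -0.51 ± 0.15 in DSS (limma adjusted p = 0.0512). Tcf7, which encodes a TCF factor found in T cells as well as in epithelium, had 0.82 ± 0.29 (limma adjusted p = 0.077). Myc measured 7.09, 7.37 and 8.16 FPKM in Control and 7.21, 2.81 and 3.56 in DSS, and Ctnnb1, the gene of β-catenin, had a log2 fold change of 0.22 ± 0.17 (limma adjusted p = 0.363). Myc, Ctnnb1 and Tcf7l2 were named after their values were seen. In GsMTx4 against DSS 1 gene passed, Tcf7 at -1.06 ± 0.29 (limma adjusted p = 0.0434), and it was lost without any 1 of the 9 libraries other than DSS 2.

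Genes of Wnt and R-spondin supply to the crypt, a list of stromal ligands and modulators and of the receptors that read them, moved both ways in DSS, with 4 of 16 tested genes higher and 4 lower. The ligand Wnt5a rose by 0.93 ± 0.17 (limma adjusted p = 0.00872), from 0.924, 1.25 and 1.01 FPKM to 2.33, 2.74 and 3.86 FPKM. Gli1, a Hedgehog target that marks stromal Wnt-producing cells, fell by 1.50 ± 0.19 (limma adjusted p = 0.00207), from 1.9, 3.28 and 3.31 FPKM to 0.509, 0.259 and 0.252 FPKM. Both held in every alternative in which they were tested. Gli1 met the filter only with its Control libraries counted, where it was high, so its call lends no support. The rest, named after their values were seen, were Rspo3, Grem1 and Wnt4 among the higher and Wls, which exports Wnts, and the receptors Fzd7 and Lrp5 among the lower. Wnt4 met the filter only with its DSS libraries counted, where it was high, so its call lends no support. Grem1, a BMP antagonist, measured 11.6, 35.8 and 147 FPKM in DSS, and Rspo3, an R-spondin, 1.66, 4.16 and 7.93, both with DSS 3 highest, as it was for the fibroblast markers. These 6 were each lost in some fits without 1 library. The lower count was 1 or 2 without Control 1, Control 2, Control 3, DSS 1 or DSS 2, and 3 or 4 without any other library. The higher count was 1 or 2 without Control 1, Control 2, Control 3, DSS 2, DSS 3 or GsMTx4 2, and 3 or 4 without any other library. In GsMTx4 against DSS 1 niche gene passed, Wnt5a with a log2 fold change of -1.10 ± 0.17 (limma adjusted p = 0.00672). Without DSS 1, 3 niche genes were lower there, and without GsMTx4 3, 1 was higher. The other receptors in the list, Lgr4, Fzd5 and Lrp6, had log2 fold changes of -0.18, -0.08 and -0.32 in DSS and did not pass.

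Of 7 tested genes whose products work with or oppose the members, 1 was lower in DSS and 0 were higher, and 2 were lower without GsMTx4 1. That 1 was Uhrf1, which maintains DNA methylation, with -0.94 ± 0.28 (limma adjusted p = 0.0481). It passed in 10 of 23 alternatives and was lost without Control 1, Control 2, Control 3, DSS 2, DSS 3 or GsMTx4 3. Hells, the partner of Cdca7, had -0.85 ± 0.30 (limma adjusted p = 0.0764). The ephrin-B genes Efnb1 and Efnb2 had -0.13 ± 0.17 and 0.11 ± 0.19. Against DSS, 0 partners passed in GsMTx4 (limma), with 1 higher and 1 lower at an unadjusted p under 0.05, and 2 were higher without GsMTx4 1.

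Notch genes, which set the choice between absorptive and secretory fate in the crypt, were lower in DSS for 3 of 7 tested and higher for 0. Atoh1, the secretory fate factor, fell by 1.53 ± 0.23 (limma adjusted p = 0.00409), and the ligand Dll1 fell by 1.12 ± 0.18 (limma adjusted p = 0.00516). The Notch target Hes1, named after its values were seen, fell by 0.97 ± 0.22 (limma adjusted p = 0.02), a call that was lost without any 1 Control library and without DSS 2. Between GsMTx4 and DSS 0 Notch genes passed (limma), with 2 higher at an unadjusted p under 0.05. Without DSS 2, 1 was lower, and without DSS 3, 1 was higher.

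Among 18 proliferation genes 3 were lower in DSS and 0 higher, and 17 were lower at an unadjusted p under 0.05, a threshold at which 23.2% of all tested genes were lower. Plk1, a mitotic kinase, fell by 1.33 ± 0.25 (limma adjusted p = 0.00872) and Mcm6, part of the replicative helicase, by 0.97 ± 0.27 (limma adjusted p = 0.0381). The third was Cdk1, named after its values were seen. The count ran from 1 to 8 with 1 library left out, at the low end when Control 1, Control 2, DSS 2 or DSS 3 was omitted and at the high end when GsMTx4 1 or GsMTx4 2 was. The list's median log2 fold change was -0.88, beside -1.42 for the marker genes. In GsMTx4 against DSS 0 proliferation genes passed (limma), with 4 higher at an unadjusted p under 0.05, and 3 passed without GsMTx4 1.

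Genes of the regenerating epithelium, a state that injured colon takes on, were measured beside the marker genes. Of 9 tested, 6 were higher in DSS and 5 were lower in GsMTx4 than in DSS. Ereg, an EGF family ligand, measured 1.34, 1.76 and 1.35 FPKM in Control, 18.2, 15.1 and 20.2 in DSS and 2.97, 1.66 and 0.989 in GsMTx4. Emp1, a membrane protein, rose by 3.49 ± 0.29 in DSS and had -4.24 ± 0.29 in GsMTx4 against DSS (limma adjusted p = 0.000474 and 0.000378). In GsMTx4 1 the list was at 0.50 on the mean log2 scale relative to Control, while the DSS libraries were at 1.63 to 1.83. By list means, that library was next to DSS 3 in the marker genes and within the DSS range in the proliferation genes. It was nearer to Control in this list. In single marker genes it lay above the DSS range in 6 of the 10.

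The genes with profiles closest to the members were ranked by the root mean square difference between a gene's z-scored log2(FPKM + 1) over the 9 libraries and the mean profile of the 9 tested members. The member profile was 0.86, 0.80 and 0.92 in Control, -0.92, -1.46 and -0.66 in DSS and -0.40, 0.79 and 0.06 in GsMTx4. Of the members, Axin2 was closest to this mean at 0.18, rank 3 of 14360 genes, and Rnf43 was farthest at 0.71. Each tested member is part of that mean, so its rank is partly fixed by the way the profile was made. Outside the members the 8 closest were Rtn4rl1 (0.16), Afap1l1 (0.18), Chka (0.19), Pnpt1 (0.19), Qsox2, Hnrnpdl, Cftr and Atp13a3 (each 0.20). Cftr, the chloride channel of crypt cells, had a mean of 15.1 FPKM in Control, 1.57 in DSS and 6.9 in GsMTx4. The profile measures likeness over 9 libraries that share group means.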

How the data were processed

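The authors deposited 1 table of FPKM values for 35315 genes in 9 libraries of total RNA from colon. Per the submitters' processing notes the tools included cutadapt and FastQC and the genome build was GRCm38. For the aligner, the counting program and the rule that combined transcripts into a gene value, nothing is stated by labels or header. Because FPKM is no count, no count test was run, and read depth is unknown. FPKM summed to 349125 to 440935 per library, 12830 to 14036 genes reached 1 FPKM, and none of 20 housekeeping genes was at 0 in any library. Gene symbols matched 35196 genes.

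Groups came from the sample titles. Values were transformed to log2(FPKM + 1). Genes with at least 1 FPKM in at least 3 libraries were fitted in limma 3.58.1 (R 4.3.3) with all 9 libraries, the trended empirical Bayes step, two-sided tests and Benjamini-Hochberg adjustment over the 14360 genes, and passed at an adjusted p under 0.05. Lgr5 was tested by exact permutation. The rule for names took all 10 members, from each list the 2 genes with the smallest p in DSS against Control and in GsMTx4 against DSS, and the 8 closest profiles. Of the list genes it took, the text gives those nearest to the crypt and leaves out most cell type markers. Names outside the rule were chosen after their values were seen. The members and lists were chosen with earlier results of these data known. The closing section gives the effect of 23 alternatives: other pseudocounts, filters, scalings and limma settings, the replicate number as a block, and each of the 9 libraries left out. Promoter windows came from RefSeq (GRCm38.p6). Figures used matplotlib 3.10.9 in Python 3.11.15.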

Additional observations from a re-analysis of the deposited data

How the results depend on the processing

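The depth in reads is unknown, so no counting error could be given for low values such as those of Lgr5 and Ascl2 in DSS, and the number of libraries limits the precision. Of the members' fold changes over all alternatives, in DSS against Control 189 of 201 kept their direction and side of the threshold, 11 no longer passed and 1 passed newly. In GsMTx4 against DSS 156 of 201 did, 37 no longer passed, 7 passed newly and 1 changed sign. In GsMTx4 against Control 200 of 201 did and 1 changed sign. The changes of sign were Ephb2 in GsMTx4 against DSS at -0.04 without GsMTx4 2 (up to 0.32 with another library left out) and Cdca7 in GsMTx4 against Control at 0.18 without GsMTx4 1 (down to -0.64), none of which passed. The cause of these changes was not tested, except that a stricter filter tests fewer genes.

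The 7 members lower in DSS became 3 at a mean FPKM of at least 5, where only Sox9, Lrig1 and Cdca7 were tested. The 3 members higher in GsMTx4 than in DSS became 0 with no filter and with the compared groups alone, 1 with FPKM of at least 0.1 in 3 libraries, at a mean FPKM of at least 5, under TPM rescaling and with sample weights, and 6 after a shift to epithelial genes. With 1 library left out, members lower in DSS ran from 4 to 7 and members higher in GsMTx4 than in DSS from 0 to 4, and the other member counts stayed at 0.

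Of all genes, 1541 were lower and 921 higher in DSS. The lower count was 992 and the higher 579 at a mean FPKM of at least 5, 2750 and 1524 with sample weights, and the lower count was 949 with median-of-ratios scaling. The share higher among genes called was 37.4% as reported, 27.5% with TPM rescaling, 58.6% with median-of-ratios scaling and 50.1% with quantile normalization, which moved the median gene by -0.106, 0.143 and 0.111 on the log2 scale. In GsMTx4 against DSS 807 genes were lower and 956 higher. These became 483 and 590 with no filter, 358 and 2481 after the epithelial shift, which raised the share higher from 54.2% to 87.4% and moved the median gene by 0.238, and 260 and 327 with the compared groups alone, and the lower count was 495 at a mean FPKM of at least 5. In GsMTx4 against Control 7 genes were lower and 27 higher. The lower count was 2 with a pseudocount of 0.1, 1 with 0.01, 12 with no filter, 2 at a mean FPKM of at least 5, 3 with median-of-ratios scaling, 3 with quantile normalization, 2 after the epithelial shift and 84 with sample weights. The higher count was 3 with a pseudocount of 0.01, 3 at a mean FPKM of at least 5 and 98 with sample weights. With 1 library left out, genes lower and higher ran from 581 to 2007 and from 382 to 1094 in DSS against Control, from 323 to 787 and from 393 to 1209 in GsMTx4 against DSS, and from 1 to 13 and from 12 to 70 in GsMTx4 against Control.

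Same-numbered libraries did not deviate together, with correlations of -0.23 to 0.10, so the numbers were not taken as pairs. With the replicate block, 7 members were lower in DSS and 1 was higher in GsMTx4 than in DSS. Over all genes the block gave 995 lower in DSS, and 525 lower and 553 higher in GsMTx4 than in DSS.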
